A study of Mus musculus with 10 samples.

Results

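The genes described here are 8 genes of the melanocyte lineage, taken by symbol from a fixed list: Trpm1, Mlana, Pmel, Tyr, Tyrp1, Dct, Sox10 and Slc45a2. They are 8 of the 55359 gene identifiers counted, and 3 of them (Trpm1, Pmel and Sox10) had enough counts to be among the 14374 genes tested. They were read in bulk RNA-seq of macrophages carrying the surface protein F4/80, which were sorted from Braf-mutant melanomas of mice. Of the 10 libraries, 5 were labelled Control (Ccr2RFP/+), in which an RFP allele stands beside a working allele of the monocyte chemokine receptor Ccr2, and 5 were labelled Ccr2 KO (Ccr2RFP/RFP), with the RFP allele on both chromosomes. The titles call the first group WT, and the genotype label was followed. All mice were male, all received Braf and Mek inhibitors every day up to collection, and all tumours are labelled resistant or rebound, so that no library without drug or without an RFP allele enters the comparison. The labels do not name the tumour cells, the age of the mice or any pooling of animals, and they do not say that each library is a separate animal. Each p-value therefore covers only the spread among these 10 samples, part or all of which may be technical.

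Melanocytes arise from the neural crest under the transcription factor Sox10, which switches on Mitf, and Mitf in turn activates the genes of pigment synthesis. Tyrosinase (Tyr), Tyrp1 and Dct are the enzymes that make melanin, Pmel builds the fibrils on which melanin is laid down, Mlana (also called MART-1) is a melanosome protein, and Slc45a2 is a transporter of the melanosome. Trpm1, or melastatin, is a cation channel of melanocytes and of retinal bipolar cells whose gene carries the microRNA miR-211 in an intron. Sox10 is not particular to pigment cells, since Schwann cells and melanoma cells that have lost pigment also express it. Macrophages are not known for melanin synthesis, and melanoma RNA can reach a macrophage sort with tumour cells, with engulfed material or as free RNA.

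The libraries held between 34639808 and 43360206 counts. A floor of 3 counts was worth 0.0659 to 0.0857 CPM (counts scaled to library size, here with the TMM factors of edgeR), and this is the level that a count of 0 allows. Ccr2, which checks the genotype labels, stood at 119 ± 45.9 CPM (SD, n = 5) in control and 4.72 ± 1.41 in knockout libraries, with no overlap. Macrophage markers, with Adgre1 (F4/80) among them, summed to between 21290 and 21670 CPM in control and between 18360 and 28040 in knockout libraries. Of these 8 markers 1 was called higher, Cd68 (against 0.870% of all genes), and 0 lower. Cd68 rose from 830 ± 49.4 to 1169 ± 115 CPM without overlap (SD, n = 5; log2 fold change 0.49, SE 0.09, edgeR adjusted p = 0.0260). Among pairs of control libraries, numbers 3 and 4, and numbers 1 and 2, stood closest (median chi-square per gene of 2.66 and 2.75, against 0.455 from counting noise alone). Results are also given with each of these pairs summed to 1 library, where that changes the call, though not for the markers Cd68 and Cd4.

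The melanin-making end of the program was near 0 in these macrophages, Sox10 RNA was well above it without a difference between genotypes that passed the test, and Trpm1 alone among the 8 passed the test, being higher without Ccr2. Across all 14374 genes, 203 (1.41%) had an adjusted p under 0.05 in edgeR's quasi-likelihood test with Benjamini-Hochberg adjustment, 125 higher (0.870%) and 78 lower (0.543%) in knockout libraries. In the same test 1 of the 3 tested melanocyte genes was called, Trpm1, and 0 were lower. Non-overlapping libraries were seen in 676 genes (4.70%), 386 of them higher (2.69%) and 290 lower (2.02%) in knockout, and Trpm1 was the 1 melanocyte gene tested with that pattern. The other 5 genes did not reach the count minimum of the test. In bulk RNA, fewer cells of a type and less RNA per cell cannot be told apart.

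**Figure D1:**
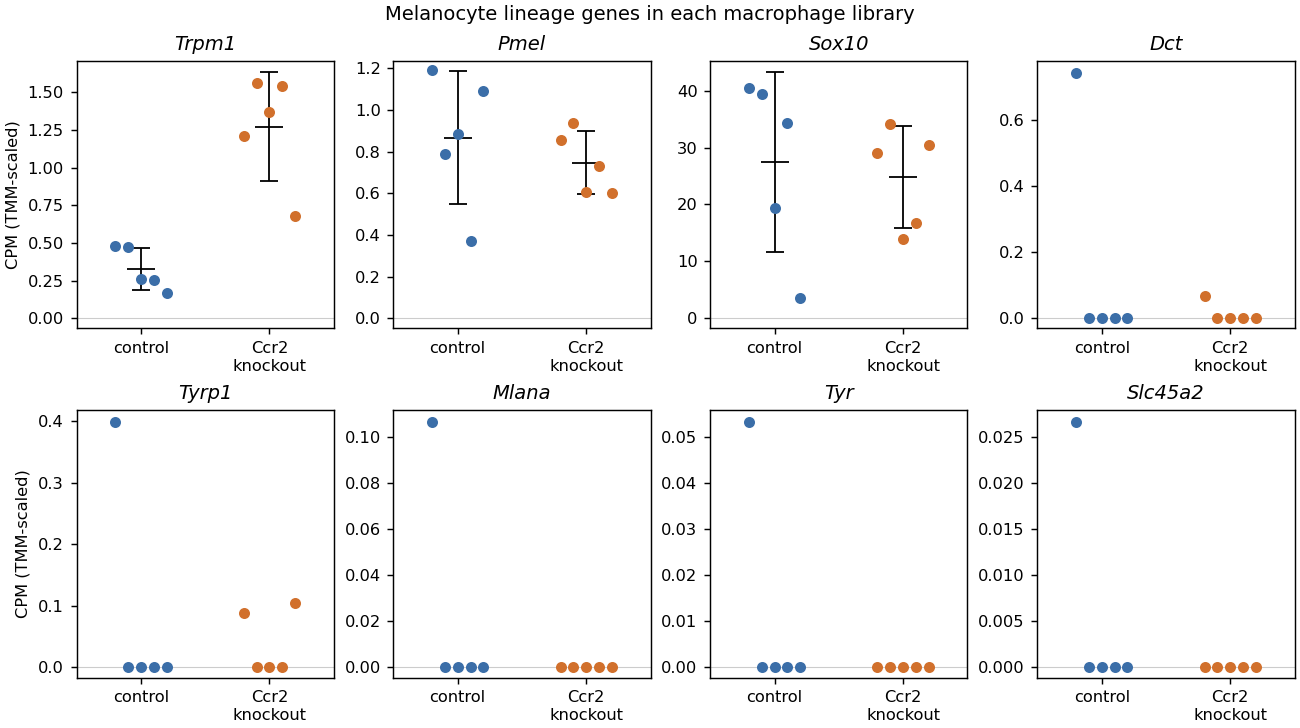
The 8 melanocyte lineage genes in each library, in CPM with TMM-scaled library sizes, with a separate linear axis for each gene. Points are libraries (5 control, 5 Ccr2 knockout), and bars on Trpm1, Pmel and Sox10 are the mean ± SD. Trpm1 is the gene whose 2 groups do not overlap, and the 5 genes at or near 0 stand out in control library 1.

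The start regions of 4 of the 8 genes (Trpm1, Tyr, Tyrp1 and Dct) were found in RefSeq on GRCm38.p6, as 5 windows of 300 bases running from 250 bases before to 50 bases after a transcript start. The counts were made on GRCm39, and coordinates here are those of GRCm38.p6. Mlana, Pmel, Sox10 and Slc45a2 had no window in the table. The windows of Trpm1, Tyr and Tyrp1 are shown because Mitf is known to bind the E-box CATGTG, in its longer form TCATGTG, and the related E-box CACGTG, so that the enzymes at or near 0 and Trpm1 can be set side by side. Capitals mark these motifs on either strand, and each sequence runs 5′ to 3′ on the gene's own strand.
Trpm1, first start, chr7:64153585-64153884, plus strand: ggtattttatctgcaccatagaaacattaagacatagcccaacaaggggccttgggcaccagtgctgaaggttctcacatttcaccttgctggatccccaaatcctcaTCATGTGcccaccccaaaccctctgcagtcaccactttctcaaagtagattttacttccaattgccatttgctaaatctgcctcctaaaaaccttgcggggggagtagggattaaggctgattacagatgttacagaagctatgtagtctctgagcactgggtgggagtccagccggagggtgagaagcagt
Trpm1, second start, chr7:64185209-64185508, plus strand: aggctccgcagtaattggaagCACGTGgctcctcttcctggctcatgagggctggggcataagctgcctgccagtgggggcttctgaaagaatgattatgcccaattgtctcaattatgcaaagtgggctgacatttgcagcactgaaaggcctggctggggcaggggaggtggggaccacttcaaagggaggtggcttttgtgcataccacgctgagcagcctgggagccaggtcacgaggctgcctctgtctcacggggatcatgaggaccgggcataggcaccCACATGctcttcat
Tyr, chr7:87493463-87493762, minus strand: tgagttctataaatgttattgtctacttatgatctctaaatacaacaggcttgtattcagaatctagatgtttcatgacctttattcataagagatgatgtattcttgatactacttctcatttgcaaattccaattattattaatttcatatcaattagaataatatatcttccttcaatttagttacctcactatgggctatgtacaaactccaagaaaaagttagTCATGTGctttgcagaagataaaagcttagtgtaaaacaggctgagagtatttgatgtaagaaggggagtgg
Tyrp1, chr4:80833963-80834262, plus strand: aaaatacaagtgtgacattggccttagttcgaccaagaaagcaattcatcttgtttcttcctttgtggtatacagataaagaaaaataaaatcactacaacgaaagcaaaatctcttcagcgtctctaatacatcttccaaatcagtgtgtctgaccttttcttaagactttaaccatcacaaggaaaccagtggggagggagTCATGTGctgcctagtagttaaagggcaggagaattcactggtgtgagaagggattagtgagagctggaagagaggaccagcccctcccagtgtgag
TCATGTG began 142 bases before the first Trpm1 start, 22 bases before the Tyr start and 47 bases before the Tyrp1 start. The Dct window, at chr14:118052197-118052496 on the minus strand, held it 151 bases before the start and again on the opposite strand 232 bases before. The second Trpm1 window had CACGTG 229 bases before its start and CATGTG on the opposite strand just after the start. Of 32851 RefSeq windows of the same length, 14.15% held CATGTG, 3.77% held the longer TCATGTG that contains it and 7.15% held CACGTG, on either strand. A match describes the letters only, and no binding was measured.

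Of the melanin-making enzymes, Dct (dopachrome tautomerase, on chromosome 14) had 28 counts in control library 1, 3 counts in knockout library 1 and 0 in the other 8 libraries. Tyrp1, on chromosome 4, had 15 counts in control library 1, 4 each in knockout libraries 1 and 5, and 0 elsewhere. Tyr, the rate-limiting enzyme on chromosome 7, had 2 counts in control library 1 and 0 in the other 9. The transporter Slc45a2, on chromosome 15, had 1 count in that library, and Mlana, on chromosome 19, had 4. A single control library thus held most of the RNA of all 5 genes, and 7 of the 10 libraries listed 0 counts for every one of them.

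In control library 1 the level of Dct was 0.743 CPM, with an exact binomial (Clopper-Pearson) 95% interval of 0.494 to 1.07, and that of Tyrp1 was 0.398 CPM (0.223 to 0.657). Mlana there was at 0.106 CPM (0.0289 to 0.272). These intervals, and the floor of 3 counts, cover counting error only. The levels of Tyrp1 in knockout libraries 1 and 5, 0.0879 and 0.104 CPM, and of Dct in knockout library 1, 0.0659 CPM, lay close to what 3 counts are worth. Summed over the 5 genes, control library 1 stood at 1.33 CPM, knockout library 1 at 0.154 and knockout library 5 at 0.104. With no filter on low counts, edgeR's adjusted p was 0.497 for Dct, 0.497 for Mlana, 0.513 for Tyr, 0.544 for Slc45a2 and 0.793 for Tyrp1. No difference between genotypes was detectable at this depth for these genes.

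Of keratinocyte markers, the keratins Krt5 and Krt14 were high in control library 1. The sum of 8 markers was 10.5 CPM there, against 1.14 to 3.26 in the other 4 control and 1.13 to 3.37 in the knockout libraries. Without these 2 keratins the sum was 2.42 CPM in control library 1, 0.829 to 2.09 in the other control and 1.08 to 2.15 in the knockout libraries. Krt5 and Krt14, which pair in basal epidermis, had 134 and 171 counts in that library. In the other control libraries Krt5 had 4 to 18 counts and Krt14 4 to 30, and in the knockout libraries they reached 18 and 30. In control library 1 the epidermal keratin Krt1 and the epidermal regulator Trp63 had 0 counts and Krt15 had 1. Of the remaining markers Dsp had 12 counts there, against 0 to 5 in the other control and 0 to 3 in the knockout libraries. Perp had 18 there, against 1 to 13 in the other control and 1 to 27 in the knockout libraries. Krt10 had 60, against 27 to 60 and 35 to 73. Fibroblast markers summed to between 633 and 2134 CPM in control and 253 to 3386 in knockout libraries, and control library 1 was not the highest there. The part of keratinocyte or skin RNA in the Dct and Tyrp1 counts was not tested.

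Sox10, on chromosome 15, was the most abundant of the 8 genes in every library and made up 73.9% to 98.2% of their counts in a library. Its counts were 1526, 1598, 677, 1479 and 147 in control libraries 1 to 5 and 1320, 1416, 550, 686 and 1170 in knockout libraries 1 to 5. Control library 5 lay far below all others, and the 2 genotypes overlapped over most of their range. The mean was 27.4 ± 15.8 CPM (SD, n = 5) in control and 24.9 ± 8.93 in knockout libraries, a log2 fold change of -0.14 (SE 0.51, edgeR quasi-likelihood adjusted p = 0.917). The sign of that change turned when the close control pairs were summed, or without control library 1 or 2 or knockout library 3, and no setting called it. Nearly all reads over Sox10, 99.6%, came from its own strand.

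Per kilobase of exon (GENCODE release 21), the Sox10 level averaged 8.99 CPM in control and 8.15 in knockout libraries. On that scale Erbb3, a neuregulin receptor of the Schwann and pigment lineages, averaged 4.03 and 3.88, and Mitf 3.17 and 3.11. Pmel averaged 0.378 and 0.326, and Trpm1, with 14.746 kb of exon, averaged 0.0221 and 0.0863. The macrophage marker Adgre1 averaged 564 and 567 CPM per kilobase. Sox10 thus stood well above Pmel and Trpm1, and all of them far below the sorting marker.

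Several genes followed Sox10 closely from library to library, though not its target Mitf. Likeness was measured as Pearson's r between deviations from the genotype means on a log2 CPM scale over the 10 libraries, ranked among 11578 genes, and is a description of libraries that share their composition. The highest r belonged to Sox6 and Ttyh1 (both 0.994), Armh4 and Chl1 (both 0.993), Plxnb3 (0.988) and Stk32a (0.985). Erbb3 was 8th by rank (0.979) and the glial cadherin Cdh19 12th (0.972), while the neural crest genes Ngfr (0.85), Fabp7 (0.83), S100b (0.72) and L1cam (0.72) stood at ranks 185, 245, 687 and 690. Mitf had r of -0.52 at rank 9808. Trpm1 stood at rank 2145 with r of 0.50, and Pmel at rank 7489 with r of -0.23. Without control library 5, where Sox10 was lowest, r stayed at 0.972 for Sox6, 0.933 for Erbb3 and 0.864 for Cdh19, and was 0.05 for Trpm1 and 0.17 for Pmel.

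The counts show the same pattern. Erbb3 had 1196, 1631, 574, 1172 and 230 counts in control and 1403, 1184, 604, 715 and 942 in knockout libraries. Cdh19 had 600, 578, 204, 362 and 10 against 465, 315, 96, 84 and 169. Control library 5 was lowest for both genes, as it was for Sox10. Neither passed the test between genotypes, with log2 fold changes of -0.05 (SE 0.42) for Erbb3 and -0.74 (SE 0.77) for Cdh19 and edgeR adjusted p of 0.964 and 0.676. Whether this RNA came from tumour cells, from glia or from macrophages was not tested.

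**Figure D2:**
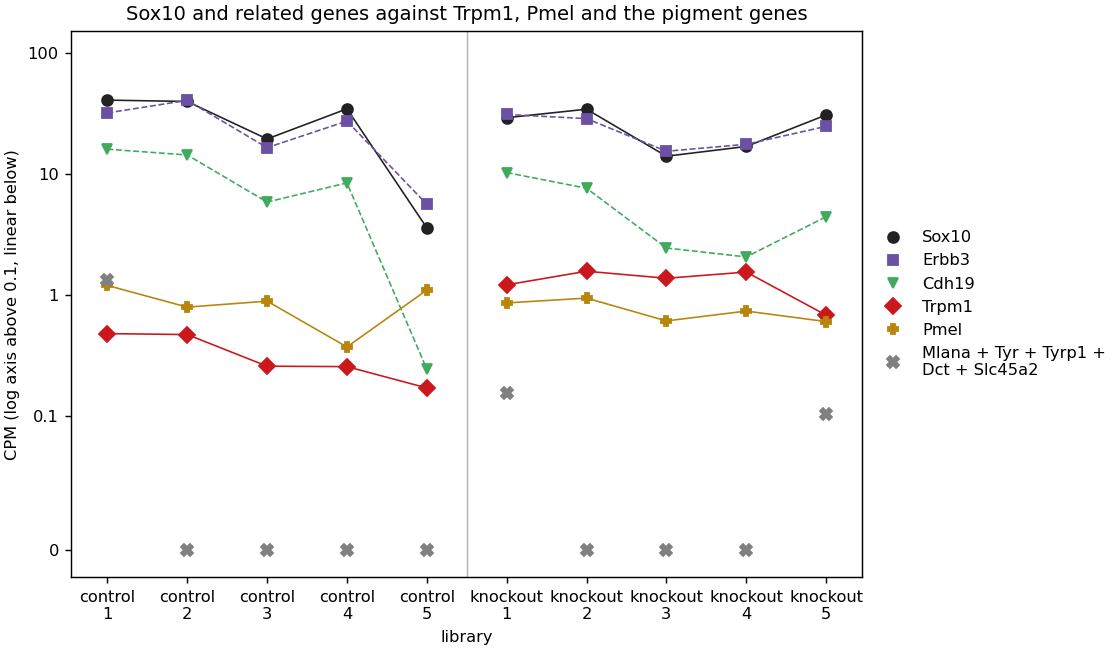
Levels of Sox10, of 2 genes that follow it (Erbb3 and Cdh19), of Trpm1, of Pmel and of the 5 pigment genes at or near 0, summed, in CPM on a log axis that is linear below 0.1, for each of the 10 libraries. Lines join libraries of a genotype in label order only to guide the eye. Sox10, Erbb3 and Cdh19 are lowest together in control library 5, and Trpm1 does not track Pmel.

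A list of 7 Schwann cell markers was present in every library and summed to between 249.5 and 311.5 CPM in control and 387 and 483 in knockout libraries. Without Pmp22 the sums overlapped, at 174 to 227 CPM in control and 131 to 231 in knockout libraries. Of the 7 markers 1 was called higher (against 0.870% of all genes), Pmp22, a membrane protein of myelin that other cells also make. Pmp22 rose from 81.7 ± 8.12 to 264 ± 41 CPM (SD, n = 5; log2 fold change 1.69, SE 0.13, edgeR adjusted p = 0.000139). None of the 7 markers was called lower, and their median log2 fold change was 0.10.

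Pmel, the fibril protein of the melanosome, on chromosome 10, had 45, 32, 31, 16 and 45 counts in control and 39, 39, 24, 30 and 23 in knockout libraries. Every library held some, and the knockout values lay inside the range of the control values. The mean was 0.867 ± 0.320 CPM (SD, n = 5) in control and 0.747 ± 0.150 in knockout libraries, a log2 fold change of -0.21 (SE 0.32, edgeR adjusted p = 0.793). Over the 10 libraries 324 counts lay on the Pmel strand and 455 on the opposite strand, so that 41.6% were sense. The annotation places Cdk2 and Dgka, a cell cycle kinase and a lipid kinase, on the opposite strand across Pmel, and their own reads were 99.4% and 99.2% sense. How much of the sense count at Pmel is Pmel RNA was not tested.

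The genes closest to Pmel in likeness were Nepro (0.876), Ubtd2 (0.871), Chst1 (0.857), Ube2j2 (0.842), Chic2 (0.838) and the small nucleolar RNA Snord104 (0.835). None of these is on the pigment lists, and Sox10 ranked 8785 of 11578. With counts of 16 to 45 per library, counting error is a large part of these deviations.

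Trpm1, on chromosome 7, had 18, 19, 9, 11 and 7 counts in control libraries 1 to 5 and 55, 65, 54, 63 and 26 in knockout libraries 1 to 5. The lowest knockout library, number 5, still exceeded the highest control library, so the groups did not overlap. In CPM the control libraries stood at 0.478, 0.469, 0.257, 0.255 and 0.170, and the knockout libraries at 1.21, 1.56, 1.37, 1.54 and 0.679. Trpm1 rose from 0.326 ± 0.139 to 1.27 ± 0.362 CPM (SD, n = 5), a log2 fold change of 1.96 (SE 0.36, edgeR quasi-likelihood adjusted p = 0.0270). Reads over Trpm1 were 97.6% sense, and with both strands counted the log2 fold change was 2.20 (edgeR adjusted p = 0.0202).

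The size of the Trpm1 difference held under every setting in which it was tested, with a log2 fold change between 1.75 and 2.20, but the call did not. The adjusted p passed 0.05 without control library 1 (0.0508), 2 (0.0567), 3 (0.0700) or 4 (0.0782) and without knockout library 4 (0.0700), all in edgeR. With the close control pairs summed, edgeR's adjusted p was 0.167, and with knockout libraries 4 and 5 summed as well it was 0.209. DESeq2 gave 0.000116 and limma-voom 0.0364. A minimum of 1 CPM in 5 libraries removed Trpm1 from the test.

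**Figure D3:**
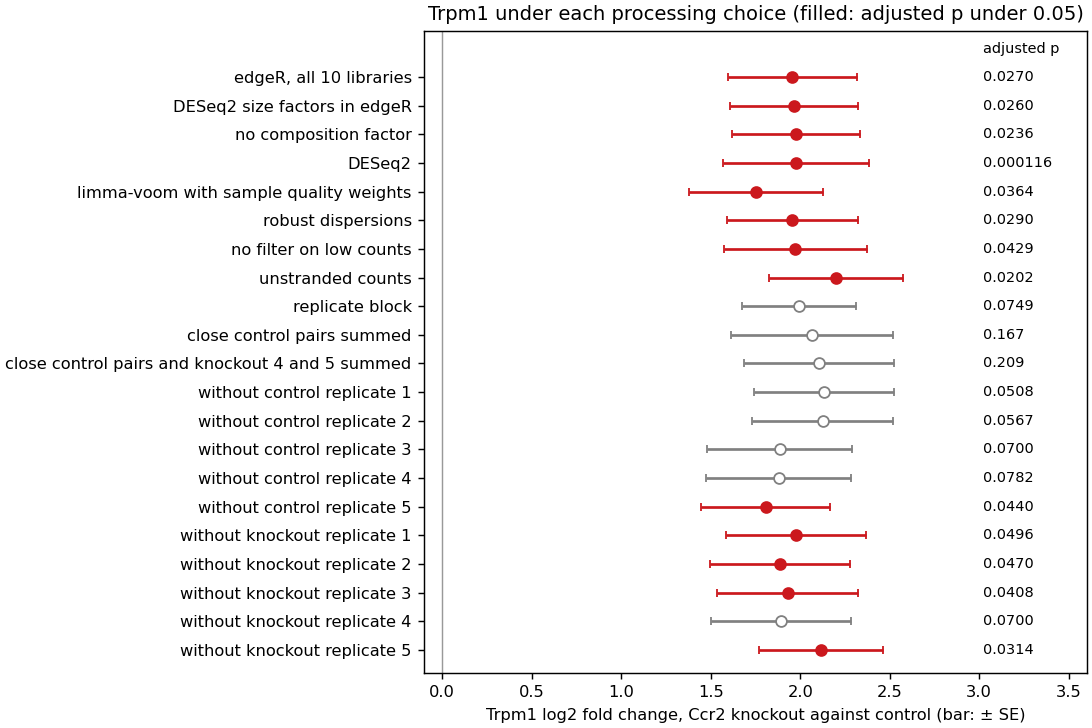
Trpm1 log2 fold change, Ccr2 knockout against control, on the horizontal axis (points, with bars of ± SE), for each processing choice named on the left, with the adjusted p on the right. Every point lies between 1.75 and 2.20, and open symbols are settings with an adjusted p above 0.05.

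Whether Trpm1 differed by another amount than the other melanocyte genes was asked library by library, from the log2 ratio of its CPM to theirs (prior count 2). Set against Pmel, there were 40.0, 59.4, 29.0, 68.8 and 15.6 Trpm1 counts per 100 Pmel counts in control libraries, and 141, 166.7, 225, 210 and 113 in knockout libraries. All knockout libraries lay above all control libraries. The mean log2 ratio was -1.28 ± 0.76 (SD, n = 5) in control and 0.69 ± 0.39 in knockout libraries, a difference of 1.97. The exact two-sided permutation test gave p = 0.00794, the smallest it can give. Adjusted over the ratios to all 7 other genes it was 0.0111, and over the ratios to Pmel and Sox10 alone 0.0159. Pmel itself differed little (log2 fold change -0.21), so this ratio largely repeats the Trpm1 difference of 1.96 and is not separate evidence for it. The sense reads of Pmel may include other RNA, as its strands above show.

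Set against Sox10, there were 1.18, 1.19, 1.33, 0.744 and 4.76 Trpm1 counts per 100 Sox10 counts in control libraries, and 4.17, 4.59, 9.82, 9.18 and 2.22 in knockout libraries. Control library 5, with its low Sox10, overlapped the knockout libraries. The mean log2 ratio was -5.87 ± 1.07 (SD, n = 5) in control and -4.21 ± 0.87 in knockout libraries, a difference of 1.67 (exact two-sided permutation p = 0.0317, or 0.0370 adjusted over 7 and 0.0317 over 2 ratios). With the close control pairs summed the difference was 1.43 (exact permutation p = 0.143). Leaving out single libraries gave differences of 1.43 to 2.12 with exact permutation p between 0.0159 and 0.0635, and the p was above 0.05 without control library 1, 2, 3 or 4 and without knockout library 3 or 4.

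Mlana, Tyr, Tyrp1, Dct and Slc45a2 were at 0 in most libraries, so a ratio to them restates Trpm1, and no result is drawn from those ratios. They do enter the adjustment over 7 ratios, most of them with the same exact permutation p as the ratio to Pmel. For Pmel the adjusted p over 7 (0.0111) therefore lies below that over 2 (0.0159), and it adds no evidence to it.

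The microRNA gene Mir211 lies within Trpm1, outside its annotated exons, and had 0 counts in all 10 libraries, which were made from polyadenylated RNA and do not measure short mature microRNAs. Its mature product is shown because the host gene is the member that rose, with the seed (bases 2 to 8) in capitals, from RefSeq.
mmu-miR-211-5p: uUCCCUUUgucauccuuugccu
Its level in these cells was not measured.

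The genes beside Trpm1 on chromosome 7 were read for a wider difference. The next protein-coding gene, Mtmr10, a myotubularin-related protein on the same strand, had 697, 814, 880, 958 and 1245 counts in control and 2161, 1511, 1337, 1452 and 1369 in knockout libraries. It rose from 23.2 ± 4.64 to 37.8 ± 5.48 CPM (SD, n = 5), without overlap between the genotypes on the CPM scale (log2 fold change 0.70, SE 0.15, edgeR adjusted p = 0.0458). Per 100 Mtmr10 counts there were 2.58, 2.33, 1.02, 1.15 and 0.562 Trpm1 counts in control and 2.55, 4.30, 4.04, 4.34 and 1.90 in knockout libraries, which overlapped. Fan1, a DNA repair nuclease beyond Mtmr10, had a log2 fold change of 0.46 (SE 0.20, edgeR adjusted p = 0.317). On the other side E030018B13Rik had 5 counts in all, and the transcription factor Klf13 had a log2 fold change of -0.12 (edgeR adjusted p = 0.748). Mtmr10 lost its call in 8 of the 10 edgeR fits that each left out a library (adjusted p up to 0.126), and under 7 of 11 other settings. The part of reads running between Mtmr10 and Trpm1 was not tested.

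After removal of the genotype means, the genes whose deviations were most like those of Trpm1 over the 10 libraries were Gmppb (0.956), Farsa (0.934), Aen (0.919), Aldh18a1 (0.914), Wdr74 (0.914) and Usp39 (0.905). None is on the pigment lists. Of the neural crest genes, Ngfr had r of 0.67 (rank 251), L1cam 0.67 (271), S100b 0.66 (286), Erbb3 0.56 (668) and Cdh19 0.56 (669), and Sox10 had 0.50 (1043). Pmel stood at 0.25 (rank 3142) and Mitf at -0.76 (rank 11498 of 11578). With 7 to 19 Trpm1 counts in control libraries, counting error is a large part of these deviations.

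Among 18 genes of the Trp channel and mucolipin families, 8 were tested, 1 was called higher (against 0.870% of all genes) and 0 lower, and their median log2 fold change was 0.25 against -0.0034 over all genes. The called gene was Trpv4, a channel opened by osmotic and mechanical stress, which rose from 17.9 ± 2.78 to 32.1 ± 5.05 CPM (SD, n = 5; log2 fold change 0.84, SE 0.14, edgeR adjusted p = 0.0209). Among relatives that did not pass the test, the mucolipin channel Mcoln2 had a log2 fold change of 0.96, Trpm4 one of 0.36 and the channel kinase Trpm7 one of -0.20 (edgeR adjusted p = 0.190, 0.375 and 0.490). Trpm3, a heat-sensitive cation channel, had a log2 fold change of 0.57 (edgeR adjusted p = 0.553).

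Beyond the 8 genes, 57 other genes tied to pigment cells in 4 lists were read from the same fit, and 49 of them were tested. These lists include genes that other cells also express, so a call in them is not assigned to pigment cells. Of these 49, 2 were called higher, 1 lower and 46 not (6.12% called, against 1.41% of all genes), and their median log2 fold change was -0.30. Mitf itself, at 19.6 ± 6.25 CPM (SD, n = 5) in control and 19.2 ± 3.81 in knockout libraries, had a log2 fold change of -0.03 (SE 0.22, edgeR adjusted p = 0.963) whose sign turned under several settings. Macrophages and osteoclasts also express Mitf, so its RNA cannot be assigned to pigment cells here.

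Among 14 lineage regulators and receptors, 11 were tested, 1 was called higher (against 0.870% of all genes) and 0 lower. Their median log2 fold change was -0.30, against -0.0034 over all genes. Kitl, the ligand of the receptor Kit on melanocytes, had 103, 116, 126, 151 and 88 counts in control and 265, 472, 194, 265 and 264 in knockout libraries, with every knockout library above every control library. It rose from 2.97 ± 0.60 to 7.09 ± 2.50 CPM (SD, n = 5; log2 fold change 1.26, SE 0.25, edgeR adjusted p = 0.0361). Kit itself had a log2 fold change of -1.09 (edgeR adjusted p = 0.413), the growth factor receptor Met -1.16 (0.451), the Wnt effector Lef1 -0.62 (0.403) and the transcription factor Sox5 -0.47 (0.561). With all 10 libraries limma-voom called Met lower (log2 fold change -2.29, adjusted p = 0.0414). In edgeR both receptors depended on knockout library 3. Without it the log2 fold change was -2.61 for Met and -1.75 for Kit (edgeR adjusted p = 0.00484 and 0.138). Without control library 2 that of Kit was -0.63. The melanocortin receptor Mc1r, the ligand Edn3 and Tfap2b were below the count minimum.

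Among 23 genes of melanosome channels, cargo and biogenesis, 20 were tested, 1 was called higher (against 0.870% of all genes) and 0 lower. Their median log2 fold change was 0.01, against -0.0034 over all genes. The called gene was Dtnbp1 (dysbindin), a subunit of the BLOC-1 complex that sorts cargo to melanosomes and other lysosome-related organelles, which rose from 85.4 ± 5.06 to 113 ± 8.69 CPM (SD, n = 5; log2 fold change 0.41, SE 0.08, edgeR adjusted p = 0.0332). Its partner in the complex Bloc1s5 had a log2 fold change of 0.31 (edgeR adjusted p = 0.219). Lyst, which governs the size of lysosomes, did not overlap between genotypes and was lower in knockout libraries, with a log2 fold change of -0.49 (adjusted p = 0.124 in edgeR and 0.0390 in DESeq2). Gpnmb, a relative of Pmel that macrophages also make, was at 20.8 ± 13.3 CPM in control and 11.8 ± 3.61 in knockout libraries (edgeR adjusted p = 0.325). The exchanger Slc24a5 was 14.1% sense, with Myef2 annotated on the opposite strand, so its level is uncertain. The pigment cell genes Oca2, with 2 counts in control library 1 and 0 elsewhere, and Gpr143, with 0 in all libraries, resembled the enzymes at or near 0.

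All 6 genes of melanosome transport were tested, and 1 was called lower (against 0.543% of all genes) and 0 higher. Their median log2 fold change was -0.77, against -0.0034 over all genes. Rab27a, the small GTPase that tethers melanosomes and secretory lysosomes, had 614, 717, 595, 719 and 601 counts in control and 283, 475, 297, 379 and 361 in knockout libraries. It fell from 16.5 ± 1.16 to 8.77 ± 1.99 CPM (SD, n = 5; log2 fold change -0.91, SE 0.16, edgeR adjusted p = 0.0223), without overlap. Its effectors Mlph and Sytl2 had log2 fold changes of -1.50 and -2.17 and Mreg one of -0.63, none past the test (edgeR adjusted p = 0.232, 0.126 and 0.467). Sytl2 was called by DESeq2 (adjusted p = 0.0199), and by edgeR without knockout library 2 (log2 fold change -2.99, adjusted p = 0.0319). Mlph stood at 8.07 and 8.69 CPM in control libraries 1 and 2, at 1.29 to 1.77 in the other control and at 1.08 to 2.05 in the knockout libraries. Kitl, Dtnbp1, Rab27a and Trpv4 lost their calls in 7, 7, 6 and 4 of the 10 edgeR fits that each left out a library, with adjusted p up to 0.0978, 0.0970, 0.0685 and 0.0648. None of these 4 genes was called once control libraries 1 and 2, and 3 and 4, had been summed.

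Of 14 genes of the neural crest and of melanoma that has lost pigment, 12 were tested and 0 were called by edgeR, DESeq2 or limma-voom, while 1 (8.33%) had an unadjusted edgeR p under 0.05, against 15.3% of all genes. Of these 12 genes 11 had a negative log2 fold change, with a median of -0.44, against 7258 negative and 7116 positive among all genes. Control libraries 1 and 2 stood apart here, with 50.3 and 41.6 CPM of L1cam against 4.32 to 9.39 in the other control libraries, and 21.1 and 26.9 CPM of S100b against 4.17 to 8.02. In the knockout libraries L1cam ranged from 6.89 to 25.9 CPM and S100b from 6.38 to 11.2. The receptor tyrosine kinase Axl, which macrophages make in abundance, had a log2 fold change of -0.44, the nerve growth factor receptor Ngfr -0.74, the adhesion molecule L1cam -1.03 and the calcium-binding protein S100a1 0.27 (edgeR adjusted p = 0.287, 0.484, 0.488 and 0.417). The melanoma genes Mia and Prame were at 0 in all libraries.

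**Figure D4:**
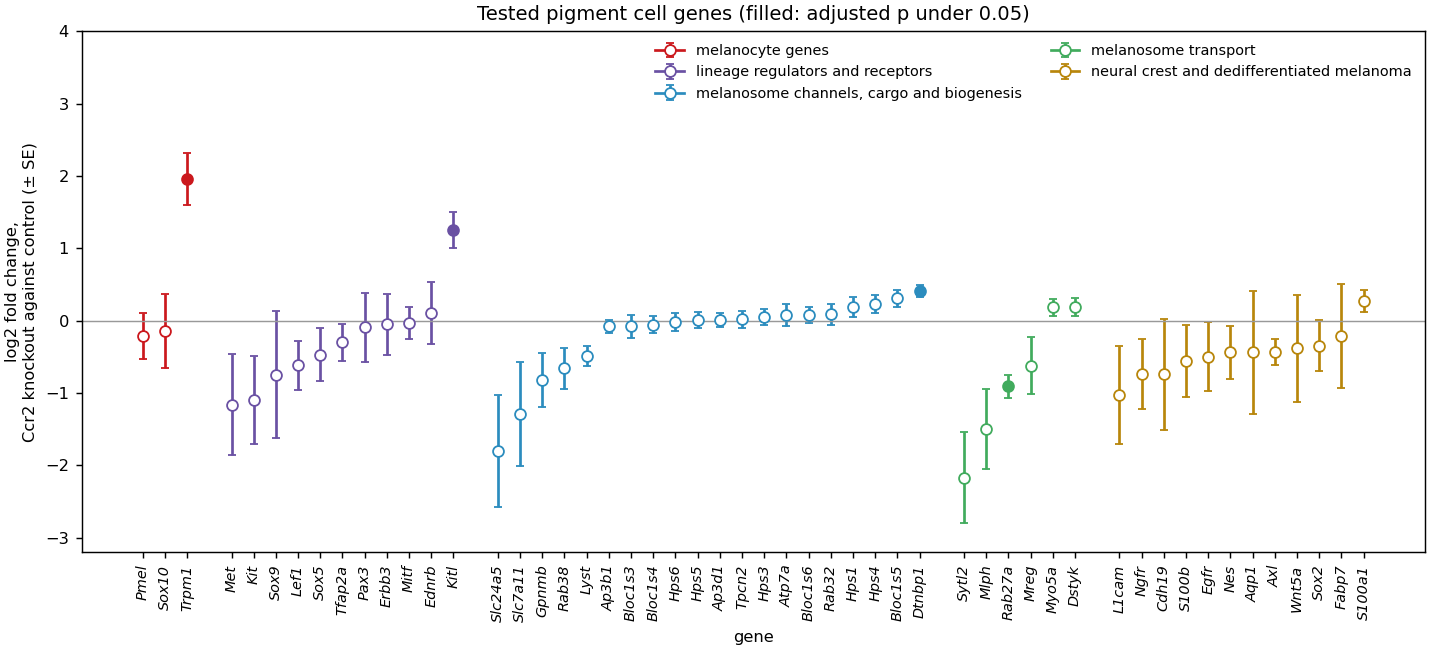
Log2 fold change with its SE, Ccr2 knockout against control, of every tested gene of the melanocyte list and of the 4 other pigment cell lists, ordered within each list. Filled symbols have an edgeR adjusted p under 0.05, which Trpm1, Kitl, Dtnbp1 and Rab27a have.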

How the data were processed

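F4/80+ cells were sorted from tumours, and directional libraries were made from polyadenylated RNA, per the labels' protocols. The authors deposited raw read counts, in STAR's per-gene format with a column for each strand. STAR and GRCm39 are named in the submitters' processing notes. The version of STAR was not given in the sources used here, nor was the annotation. The reverse-strand column was used, which held 96.2% to 96.5% of strand-assigned counts. Multimapping reads were listed as 0, so reads shared by near-identical genes are not seen. Of the reads, 6.87% to 8.07% were unmapped, 1.83% to 2.10% ambiguous and 3.63% to 5.68% met no gene, and these were kept out of library sizes. A combined count table has 10 columns without sample names and was left out.

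Genes were tested in all 10 libraries with edgeR 4.0.16 in R 4.3.3 (filterByExpr with a minimum count of 10, TMM, quasi-likelihood F-test, Benjamini-Hochberg over all genes, threshold 0.05). The standard error is the log2 fold change divided by the square root of F. Alternatives were DESeq2 1.42.0, limma-voom (limma 3.58.1), other scalings and filters, unstranded counts, robust dispersions, the title number as a block, closest libraries summed, and each library left out. Adjustment over the ratios to Pmel and Sox10 alone was chosen after seeing the data. Permutation tests used scipy 1.17.1, and figures matplotlib 3.10.9. The gene test was tested on simulated data. Exon lengths, overlaps and gene order came from GENCODE release 21 on GRCm38, so lengths are approximate for these counts.

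The members and lists were chosen with earlier results of these data known, and 1 marker gene is not reported here. Named were the 8 genes, in each other list every called gene and up to 4 others with the smallest p, Mitf, Gpnmb and Kit, the 6 genes most like Trpm1 and the 6 most like Pmel with a mean of at least 1 CPM, the 2 neighbours on each side of Trpm1, and Ccr2. Genes most like Sox10, Erbb3, Cdh19, Fabp7, S100b, Pmp22, Cd4, Cd68, Csf3r, S100a8 and S100a9 were added after seeing their values, outside that rule. So were Krt1, Krt10, Krt15, Krt5, Krt14, Trp63, Dsp, Perp, Adgre1, Cdk2, Dgka, Myef2, Mir211 and the listed genes at or near 0.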

Additional observations from a re-analysis of the deposited data

Results flagged for a closer look

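In 43 named genes, each genotype's 5 libraries were examined for a library whose gap to its nearest neighbour divided by the whole range is over Dixon's 95% critical value, and 19 of 86 such groups held one. Chance alone picks out about 5% of groups, and genes at 0 in all but 1 library meet the rule with any count.

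Control library 1 stood apart in 7 genes, with 0.743 CPM of Dct, 0.398 of Tyrp1, 0.106 of Mlana, 0.0531 of Tyr and 0.0265 of Slc45a2 against 0 in the other control libraries, and with 3.56 CPM of Krt5 and 4.54 of Krt14. Among knockout libraries, number 1 was apart with 0.0659 CPM of Dct, 25.9 of L1cam, 25.9 of Mcoln2 and 47.5 of Mtmr10, and was the lowest for Axl with 362 CPM. Knockout library 3 was apart with 2.05 CPM of Kit, 4.89 of Met and 1.19 of Slc24a5. Knockout library 4 was apart with 128 CPM of Dtnbp1 and 2.08 of Rab38, and knockout library 2 with 0.842 of Sytl2. Control library 5 was apart with 43.7 CPM of Gpnmb.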

How the results depend on the processing

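The number of genes called was 203 and became 820 with DESeq2, 446 with limma-voom, 29 with the close control pairs summed, 8 with knockout libraries 4 and 5 summed as well, and 62 to 267 without single libraries. The 1 called melanocyte gene became 0 under those sums and with at least 1 CPM in 5 libraries, where Trpm1 was not tested, and 0 to 1 without single libraries. The 3 other called pigment cell genes became 5 with DESeq2, 0 under both sums, and 0 to 4 without single libraries. The Trpm1 log2 fold change was 1.81 to 2.13 without single libraries, and was no longer called at 2.065 and 2.106 under the sums (edgeR adjusted p = 0.167 and 0.209). The ratio to Sox10 fell short of the threshold at 1.43 with the pairs summed and ranged from 1.43 to 2.12 without single libraries. Signs turned for Sox10 (0.073 and 0.082 under the sums, -0.41 to 0.041 without single libraries), Mitf (0.14 with limma-voom, -0.14 to 0.14), Erbb3 (0.13 and 0.16 under the sums, -0.29 to 0.21) and Klf13 (-0.18 to 0.022), none of them called. The cause was not tested. With the title number as a replicate block, 55 genes were called, 0 of them melanocyte genes and 0 other pigment cell genes; Trpm1 was at 1.99 (edgeR adjusted p = 0.0749), Sox10 at 0.028, Mitf at 0.0048 and Erbb3 at 0.12. The numbers do not pair the libraries: deviations of same-numbered libraries correlated at 0.344, 0.0802, -0.529, 0.180 and -0.224, and 1 of 5 control libraries correlated best with its own number. At this depth, genes of a few counts per library allow no comparison.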

Other observations

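Of 15 genes of the Mitf, Tfe and lysosomal program that macrophages use, 13 were tested and 0 were called by edgeR or limma-voom, while DESeq2 called 1 (7.69%, against 5.71% of all genes) and 2 (15.4%, against 15.3%) had an unadjusted edgeR p under 0.05. Their median log2 fold change was -0.03. Acp5, the acid phosphatase of osteoclasts and macrophages, was at 453 ± 109 CPM (SD, n = 5) in control and 239 ± 109 in knockout libraries, with a log2 fold change of -0.92 (edgeR adjusted p = 0.139). DESeq2 called it (adjusted p = 0.0257), as did edgeR without knockout library 4 (0.0352). Cd63, a tetraspanin of lysosomes and melanosomes, had a log2 fold change of 0.32 (edgeR adjusted p = 0.346).

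Endothelial markers summed to between 39.0 and 89.5 CPM in control and 25.3 and 39.1 in knockout libraries, and neutrophil markers to 149 to 501 and 111 to 203. Csf3r was the most abundant neutrophil marker in every library. It made up 129.4 of 129.7 CPM in knockout library 4 and 129.9 of 130.1 in knockout library 5. S100a8 ranged from 2.49 to 119 CPM in control and 0 to 30.8 in knockout libraries, and S100a9 from 1.60 to 135 and 0 to 59.0. T and NK cell markers summed to 66.9 to 156 CPM in control and 87.8 to 194 in knockout libraries. Cd4, which macrophages can also make, was their most abundant member in every library. Of the 6 tested members 1 was called higher, Cd4 (against 0.870% of all genes), and 0 lower. Cd4 rose from 61.6 ± 12.3 to 135 ± 35.1 CPM without overlap (SD, n = 5; log2 fold change 1.13, SE 0.20, edgeR adjusted p = 0.0223). Without Cd4 the sum was 15.7 to 80.5 CPM in control and 1.10 to 59.3 in knockout libraries. The other 5 of the 6 tested members had a negative log2 fold change (median of all 6, -1.18), and none of them was called. Their part in the levels of the melanocyte genes was not tested.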
